A study of Mus musculus with 6 samples.

Results

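The 6 catalytic subunits of the SET1/MLL family, Setd1a, Setd1b, Kmt2a, Kmt2b, Kmt2c and Kmt2d, were followed in hematopoietic stem cells (HSCs) of the mouse fetal liver with and without Dpy30. The members were chosen by name as the enzymes that carry the histone methyltransferase activity of these complexes. All 6 were present by symbol among 38926 gene symbols counted, and all 6 were among the 13646 genes that passed the filter on low counts. The cells came from E14.5 embryos and were sorted by HSC surface markers. Controls (n = 3) had the genotype Vav-Cre; Dpy30F/+, with 1 floxed and 1 intact Dpy30 allele, and knockouts (n = 3) had the genotype Vav-Cre; Dpy30F/-, with 1 floxed allele and 1 allele marked as null. Both groups carried Vav-Cre, which drives Cre from the Vav promoter of the blood lineage, so the reference is a heterozygous state and not a fully intact one. Each of 3 litters gave 1 control and 1 knockout sample, and samples are numbered by litter. Whether a sample was 1 embryo or a pool is not given in the sources used here.

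SET1/MLL complexes place methyl groups on lysine 4 of histone H3 (H3K4), a mark of active promoters and enhancers. Each complex holds 1 catalytic subunit with a C-terminal SET domain, which works fully only when bound to a shared core of WDR5, RBBP5, ASH2L and DPY30. SETD1A and SETD1B are known for trimethylation at most active promoters, KMT2A and KMT2B for a smaller set of targets that includes the Hox genes, and KMT2C and KMT2D for monomethylation at enhancers. KMT2A is required for blood stem cells, and its gene is rearranged in acute leukemias. Because DPY30 is shared, its loss reaches complexes of every catalytic subunit, and the question addressed here is what the RNA of the enzymes themselves did.

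The enzymes fall into 3 pairs of close relatives, which matters for counts that are made from short reads. To show how close, the most similar stretch of 60 coding bases within single exons is given for each pair, in lower case with the bases that differ between the pair in capitals (5′ to 3′ on the coding strand, transcripts of GENCODE M21, build GRCm38).
Setd1a: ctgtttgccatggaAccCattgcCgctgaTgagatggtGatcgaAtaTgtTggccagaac
Setd1b: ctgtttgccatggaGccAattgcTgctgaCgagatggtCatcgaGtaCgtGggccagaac
Kmt2a: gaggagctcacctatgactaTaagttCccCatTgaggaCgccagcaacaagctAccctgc
Kmt2b: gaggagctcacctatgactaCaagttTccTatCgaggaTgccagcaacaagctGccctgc
Kmt2c: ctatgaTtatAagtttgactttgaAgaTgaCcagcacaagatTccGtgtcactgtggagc
Kmt2d: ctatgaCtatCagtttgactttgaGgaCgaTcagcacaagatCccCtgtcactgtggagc

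These stretches lie in exon 17 of 19 of Setd1a (chr7:127797655-127797714, plus strand), exon 15 of 17 of Setd1b (chr5:123163423-123163482, plus strand), the last exon, 36, of Kmt2a (chr9:44807941-44808000, minus strand), the last exon, 37, of Kmt2b (chr7:30569200-30569259, minus strand), the last exon, 59, of Kmt2c (chr5:25273694-25273753, minus strand) and the last exon, 55, of Kmt2d (chr15:98834528-98834587, minus strand). All 6 are near the end of the coding sequence, where the SET domain is encoded, at 318 bases from it in Setd1a and Setd1b, 36 in Kmt2a and Kmt2b, and 25 in Kmt2c and Kmt2d. The stretches were 86.7% identical between Setd1a and Setd1b, 90.0% between Kmt2a and Kmt2b and 88.3% between Kmt2c and Kmt2d. Differences sat at the third base of a codon in 8 of 8, 6 of 6 and 6 of 7 cases, in that order. The closest stretch between members of different pairs matched at 45 of 60 bases (Setd1a with Kmt2a). The longest run shared without a mismatch by any 2 coding sequences was 37 bases, in Kmt2c and Kmt2d. No sequence of 50 bases occurred in the transcripts of more than 1 member, so a uniquely aligned read at least that long could be told apart between relatives. The read length is not given in the sources used here.

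In the annotation, Setd1a spans chromosome 7, 127776670 to 127800122, with 6795 bases of exon. Setd1b spans chromosome 5, 123142193 to 123168629, with 12068 bases of exon. The KMT2 genes are longer: Kmt2a spans chromosome 9, 44803355 to 44881296, with 16670 bases of exon, Kmt2b chromosome 7, 30568858 to 30588726, with 9596, Kmt2c chromosome 5, 25271798 to 25498783, with 20291, and Kmt2d chromosome 15, 98831669 to 98871204, with 19931. For Setd1a, 52.3% of exon bases are shared in this annotation with exons of 2 other gene models, against 2.27% for Kmt2a, 1.35% for Kmt2c and none for the rest. None of those overlapping models is listed under its M21 symbol in the count tables, and whether an older model in the authors' annotation took reads from Setd1a as ambiguous cannot be told.

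Dpy30, the deleted gene, was examined first. In counts scaled to 1000000 per library (CPM, with trimmed mean of M values factors), it stood at 24.6, 24.2 and 31.6 in controls 1 to 3 and at 7.93, 5.95 and 13.7 in knockouts 1 to 3. Every knockout was below every control, and the log2 fold change (knockout over control throughout) came to -1.55 (SE 0.464; edgeR quasi-likelihood adjusted p = 0.672), which did not pass 0.05. Counts assigned to genes came to 35559444 to 43394700 in controls and 31897737 to 36679347 in knockouts, of which 54.4% to 67.7% and 49.2% to 55.7% were mitochondrial. Mitochondrial ribosomal RNA alone made up 49.7% to 61.7% of gene counts for controls and 45.2% to 50.5% for knockouts. Fewer genes had any count in knockouts 3 (13972) and 2 (14674) than in knockout 1 (16857) or the controls (16149 to 17241). The part of these library differences in the values of the 6 members was not tested. The HSC label was held against 10 markers, of which Cd48 is low in HSCs and was at most 4.33 CPM here. Their summed level was 543 to 596 CPM in controls and 253 to 798 CPM in knockouts, lowest in knockout 3. Summed over 10 genes, myeloid and macrophage markers were at 133 to 246 CPM in controls and 442 to 1312 CPM in knockouts, highest in knockout 3. The ranges, controls first, were 896 to 1554 and 765 to 2316 CPM for 9 erythroid markers and 73.8 to 104 and 90.6 to 171 for 5 megakaryocyte markers. For 5 endothelial markers they were 1077 to 1709 and 135 to 1625, of which the lowest was knockout 2. The endothelial sum was above the HSC sum in every sample except knockout 2. These sums cover different genes and are not divided by length, so they do not compare amounts of the cell types. The purity of the sorted cells was not tested. Mast cell, lymphoid and hepatocyte markers were low, with Fcer1a, Cd3e and Dntt at 0 in all 6 samples. Mast cell markers (4 genes) summed to 0.0691 to 5.48 CPM in controls and 6.42 to 17.9 CPM in knockouts. Lymphoid markers (6 genes) summed to 1.62 to 5.38 and 1.69 to 4.71 CPM, controls first. Hepatocyte markers (7 genes) summed to 5.56 to 21.9 and 3.39 to 6.94 CPM in the same order. In these bulk samples fewer cells of a type and less RNA per cell cannot be told apart, and the part of the markers in the results on the 6 members was not tested.

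None of the 6 catalytic subunits passed the test between knockout and control (0 of 6 at an edgeR adjusted p under 0.05, where 0% of the 13646 genes tested passed). None reached an unadjusted p under 0.05 either, which 6.51% of all genes did. DESeq2 also called none of the 6, against 1.03% of the 13390 genes to which it gave an adjusted p. The fitted log2 fold changes lay between -0.08 for Kmt2b and 0.22 for Kmt2c, with a median of 0.07 beside a median of 0.01 over all genes tested. In no member did the genotypes separate: 0 of 6 had every knockout above every control (6.39% of all genes did) and 0 of 6 every knockout below every control (7.74%). Likewise 0 of 6 were higher in the knockout in all 3 litters (12.3% of all genes) and 0 of 6 lower in all 3 (15.9%).

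**Figure D1:**
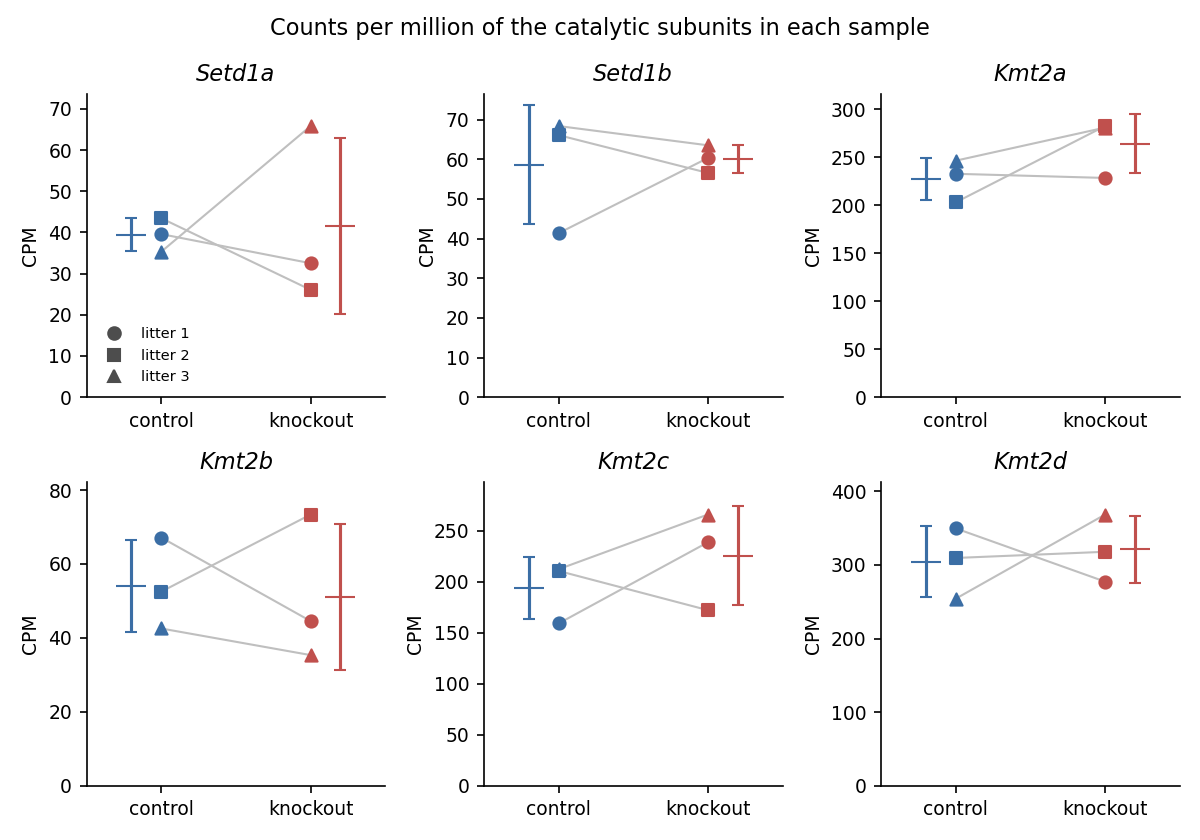
CPM of each catalytic subunit (vertical axis, starting at 0) in controls and Dpy30 knockouts; markers give the litter, grey lines join the samples of a litter, and bars beside the points are the mean and SD of 3 samples. The genotypes overlap in all 6 panels, and the widest spread relative to its mean is that of Setd1a in the knockouts, from 26.1 to 65.9 CPM.

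The SET1 enzymes came first by role. Setd1a was measured at 39.6, 43.5 and 35.3 CPM in controls 1 to 3 and at 32.5, 26.1 and 65.9 CPM in knockouts 1 to 3. Knockouts 1 and 2 lay below all controls and knockout 3 above all of them. The means were 39.5 ± 4.06 and 41.5 ± 21.4 CPM (SD, n = 3 each; two-sided exact permutation p = 1), with a fitted log2 fold change of 0.07 (SE 0.394; edgeR adjusted p = 0.990). Within litters 1 to 3 the log2 change was -0.28, -0.74 and 0.90. Leaving out knockout 3 gave -0.42 (edgeR adjusted p = 0.790) and leaving out control 3 gave -0.003, while the value was 0.32 without knockout 2, 0.22 without knockout 1 and 0.14 without control 2. With all 6 samples the sign also turned with litter as a block, with limma-voom and with upper-quartile scaling. Relative to the median of all genes in those fits, Setd1a was at 0.077, 0.097 and 0.024, in that order. As its sign turned with single samples, no direction can be given for Setd1a. Knockout 3 is also the sample with the lowest summed HSC markers and the highest summed myeloid markers.

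Setd1b, the other SET1 enzyme, was at 41.4, 66.1 and 68.4 CPM in controls 1 to 3 and at 60.3, 56.6 and 63.5 CPM in knockouts 1 to 3. Control 1 was the low sample, and all 3 knockouts lay between it and control 2. Mean levels were 58.6 ± 15.0 and 60.2 ± 3.49 CPM, controls first (SD, n = 3 each; two-sided exact permutation p = 1). The fitted value was 0.04 on the log2 scale (SE 0.277; edgeR adjusted p = 0.990), and -0.16 without control 1 (edgeR adjusted p = 0.999).

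Kmt2a, which encodes MLL1, had 233, 203 and 247 CPM in controls 1 to 3 and 229, 283 and 281 CPM in knockouts 1 to 3. Knockouts 2 and 3 were above all controls, while knockout 1 lay between controls 2 and 1. The mean was 228 ± 22.2 CPM against 264 ± 30.8 CPM in knockouts (SD, n = 3 each; two-sided exact permutation p = 0.3). Kmt2a had the smallest p among the 6, with a log2 fold change of 0.21 (SE 0.197; unadjusted p = 0.306; edgeR adjusted p = 0.897).

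Its relative Kmt2b was the 1 member with a negative fitted change. It had 67.1, 52.5 and 42.5 CPM in controls 1 to 3 and 44.5, 73.4 and 35.3 CPM in knockouts 1 to 3, so that the highest and the lowest sample were both knockouts. The means were 54.1 ± 12.4 and 51.1 ± 19.8 CPM (SD, n = 3 each; two-sided exact permutation p = 0.8), with a log2 fold change of -0.08 (SE 0.349; edgeR adjusted p = 0.985). The value was 0.11 without control 1, 0.01 without knockout 1 and 0.14 without knockout 3, and -0.44 without knockout 2, so its direction depended on single samples. Knockout 2 is also the sample with the lowest summed endothelial markers.

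Kmt2c, one of the enhancer enzymes, was at 159, 211 and 212 CPM in controls 1 to 3 and at 239, 172 and 266 CPM in knockouts 1 to 3. Knockouts 1 and 3 were above all controls and knockout 2 lay between controls 1 and 2. The 2 means were 194 ± 30.2 and 226 ± 48.3 CPM (SD, n = 3 each; two-sided exact permutation p = 0.4), with a log2 fold change of 0.22 (SE 0.240; edgeR adjusted p = 0.916). It was 0.09 without control 1 and 0.10 without knockout 3, and 0.38 without knockout 2, the sample with the lowest summed endothelial markers.

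Kmt2d, the other enhancer enzyme and the member with most counts, had 349.7, 309.5 and 254 CPM in controls 1 to 3 and 277, 318 and 369 CPM in knockouts 1 to 3. The 2 genotypes covered nearly the same range, with the lowest sample a control and the highest a knockout. Its means were 304 ± 47.9 and 321 ± 45.7 CPM (SD, n = 3 each; two-sided exact permutation p = 0.7), and its fitted log2 change was 0.08 (SE 0.212; edgeR adjusted p = 0.973). This turned to -0.04 without control 3 and to -0.02 without knockout 3. The smallest p that 3 against 3 samples allow in the permutation test is 0.1, so it could not pass 0.05, and over the 6 members every permutation p was 1 after Benjamini-Hochberg adjustment.

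The 6 genes were counted deeply, with 946 to 12905 counts per sample, and the fit bounded their change more tightly than that of most genes. The 95% interval of the log2 fold change was -0.24 to 0.67 for Kmt2a, -0.41 to 0.56 for Kmt2d and -0.33 to 0.77 for Kmt2c. For the less abundant members it was -0.60 to 0.68 for Setd1b, -0.89 to 0.72 for Kmt2b and -0.83 to 0.98 for Setd1a. All 6 intervals lay within a 2-fold change in either direction, as did those of 11.7% of the genes tested. The biological coefficient of variation estimates the spread between replicates beyond counting error, and edgeR moderates it over genes. It was 0.240 for Kmt2a, 0.249 for Kmt2d, 0.267 for Kmt2c and 0.299 for Setd1b. For Kmt2b and Setd1a it was 0.350 and 0.387, against a median of 0.651 over all genes tested. This does not show that the levels were equal, since changes of up to 1.59-fold for Kmt2a and up to 1.97-fold for Setd1a are inside the intervals. With litter as a block, in paired fashion, the interval of Setd1a reached from -1.08 to 0.99, and 5 of 6 stayed within 2-fold, as did 8.79% of all genes in that fit. Over 15 other edgeR settings the interval stayed within 2-fold in 15 for Kmt2a and Kmt2d, 14 for Setd1b and Kmt2c, 9 for Kmt2b and 4 for Setd1a.

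**Figure D2:**
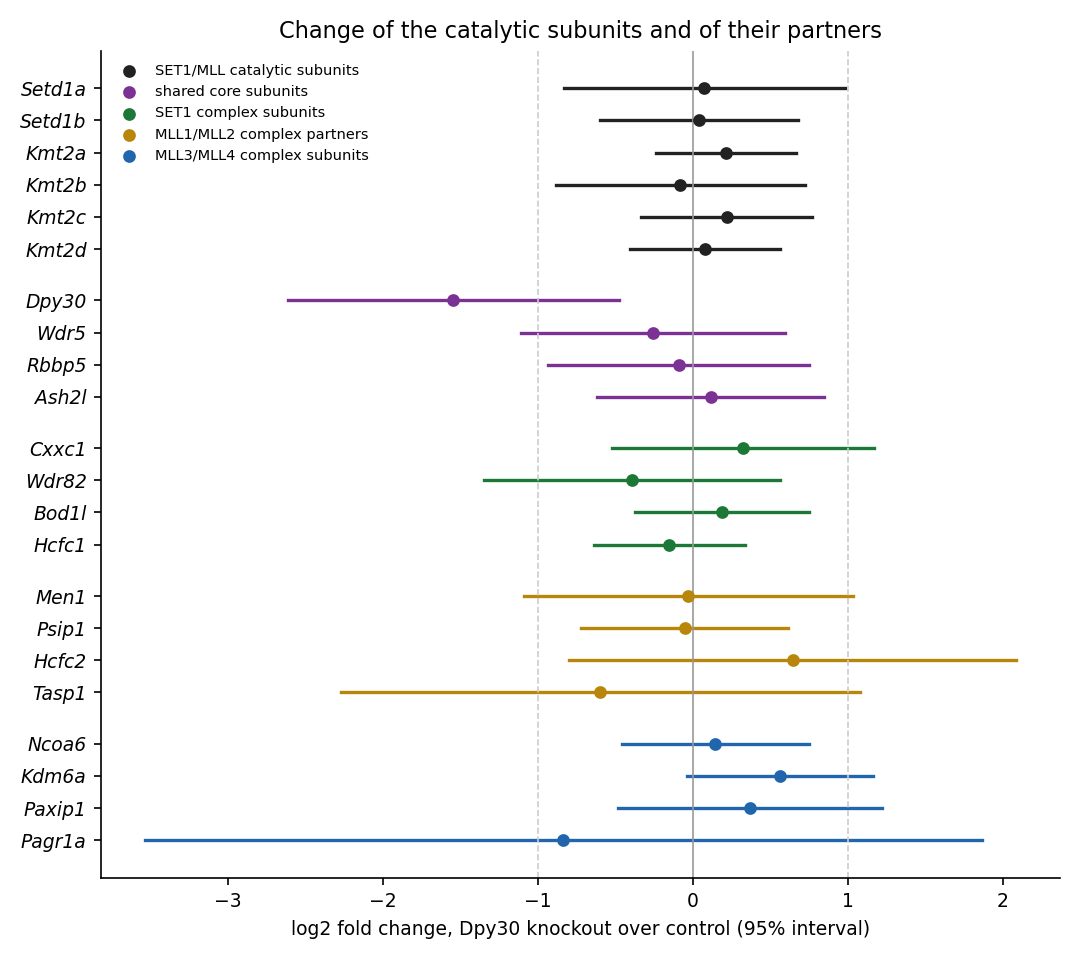
Log2 fold change, Dpy30 knockout over control (horizontal axis; points), with its 95% interval from edgeR (lines) for the 6 catalytic subunits and for subunits of their complexes; dashed lines mark a 2-fold change. The 6 catalytic subunits lie between -0.08 and 0.22 with intervals inside the dashed lines, and Dpy30 lies at -1.55.

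**Figure D3:**
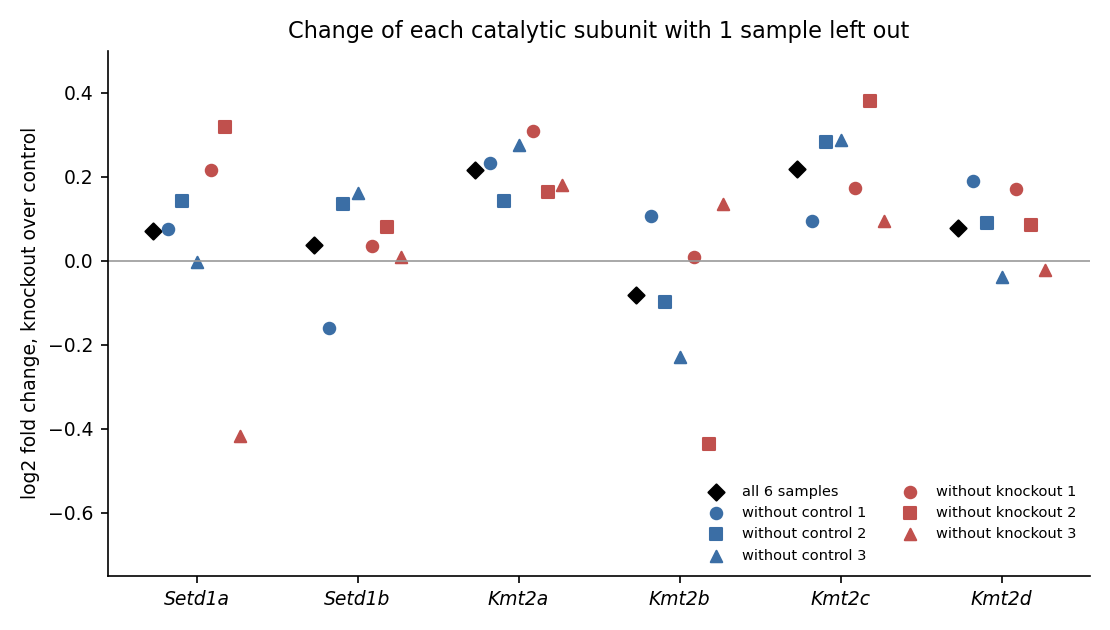
Log2 fold change of each catalytic subunit (vertical axis) with all 6 samples (diamonds) and with each sample left out in turn (blue, a control; red, a knockout; marker shapes give the litter). Kmt2a and Kmt2c are above 0 in every case, whereas Setd1a is at -0.42 without knockout 3 and Kmt2b at -0.44 without knockout 2.

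Levels of different genes can be compared only per length, so CPM was divided by kilobases of exon. On this scale Kmt2d stood at 15.3 ± 2.41 in controls and 16.1 ± 2.29 in knockouts, and Kmt2a at 13.6 ± 1.33 and 15.8 ± 1.85 (SD, n = 3 each). Kmt2c followed at 9.56 ± 1.49 and 11.1 ± 2.38 CPM per kilobase. The lower places went to Setd1a at 5.81 ± 0.598 and 6.11 ± 3.14, Kmt2b at 5.63 ± 1.29 and 5.32 ± 2.07, and Setd1b at 4.86 ± 1.24 and 4.98 ± 0.289 CPM per kilobase. The median gene was at 2.88 CPM per kilobase among 12871 tested genes with a known exon length, and the members lay above 65.2% (Setd1b) to 90.3% (Kmt2d) of them.

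In all 6 samples Kmt2d and Kmt2a took the top 2 places and Kmt2c the third. Kmt2d and Kmt2a did not differ beyond their spread, Kmt2d being the higher in 4 of 6 samples. Kmt2a was above Kmt2c in 6 of 6 samples, by 1.17-fold to 2.00-fold, with no overlap of their ranges within either genotype. Kmt2c was above Setd1a in 6 of 6, by 1.35-fold to 2.46-fold, although their ranges met in the knockouts. The level of Setd1a would be too low if reads were lost in the 52.3% of its exon bases shared with other models, which cannot be told. Setd1a, Kmt2b and Setd1b overlapped and swapped order from sample to sample. With coding length in place of exon length, Setd1b (9.85 CPM per kilobase in controls) passed Setd1a (7.67) and Kmt2a (19.1) passed Kmt2d (18.2), so the order within the upper 2 and within the lower places depended on the length used.

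**Figure D4:**
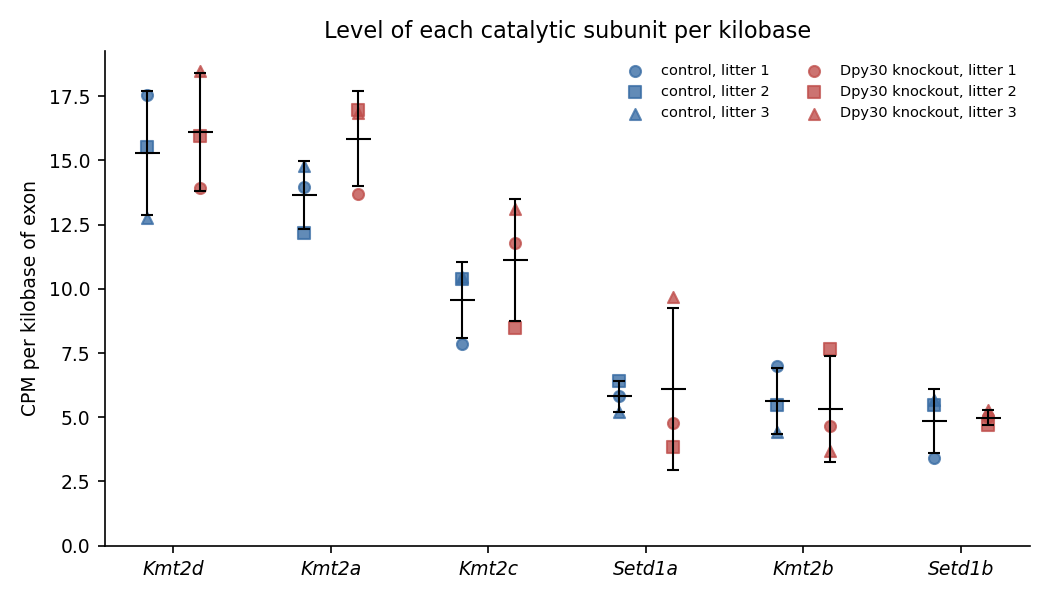
CPM per kilobase of exon (vertical axis, starting at 0) of each catalytic subunit in controls (blue) and knockouts (red), with marker shapes for litters and black bars for mean and SD of 3 samples. Kmt2d, Kmt2a and Kmt2c occupy the upper places, and Setd1a, Kmt2b and Setd1b overlap at lower levels.

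Added up, the 6 enzymes came to 55.6, 55.4 and 53.3 CPM per kilobase in controls 1 to 3 and to 53.8, 57.6 and 67.1 in knockouts 1 to 3. Knockout 3 was the high sample, knockout 2 was above all controls by less, and knockout 1 lay within the controls' range. The share of each enzyme in this sum does not depend on how libraries are scaled. Kmt2d took 27.8% ± 3.82 in controls and 27.0% ± 1.03 in knockouts, Kmt2a 24.9% ± 2.89 and 26.7% ± 2.41, and Kmt2c 17.5% ± 2.96 and 18.7% ± 3.63 (SD, n = 3 each). Setd1a took 10.6% ± 0.895 and 10.002% ± 4.01, Kmt2b 10.3% ± 2.16 and 9.13% ± 3.92, and Setd1b 8.89% ± 2.39 and 8.43% ± 0.761. For each member the 2 genotypes differed in mean share by less than the larger of their SDs.

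Within pairs of relatives, the balance was read as a ratio of per-kilobase levels, which does not depend on library scaling either. In controls 1 to 3 the ratio of Kmt2a to Kmt2b was 2.00, 2.23 and 3.34, and in knockouts 1 to 3 it was 2.95, 2.22 and 4.58. Litter 3 gave the higher value in both genotypes. The ratio of Kmt2d to Kmt2c was 2.24, 1.496 and 1.22 in controls and 1.18, 1.88 and 1.41 in knockouts. For Setd1b over Setd1a the controls gave 0.588, 0.857 and 1.09 and the knockouts 1.04, 1.22 and 0.543, lowest in knockout 3. The genotypes overlapped in all 3 ratios, with two-sided exact permutation p of 0.6, 0.6 and 0.8 for the log2 ratios in the same order, each 0.8 after Benjamini-Hochberg adjustment over the 3.

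The pattern over the 6 samples differed among members. Measured as the root mean square difference of log2 CPM centred on each gene's mean, the closest 2 members were Setd1b and Kmt2c (0.185), then Kmt2a and Kmt2d (0.206), and the most distant Setd1a and Kmt2b (0.712). Relatives were therefore not the closest: the value was 0.445 for Setd1a with Setd1b, 0.414 for Kmt2a with Kmt2b and 0.329 for Kmt2c with Kmt2d. Among 8449 genes of at least 5 CPM, those nearest to the mean pattern of the 6 were Gsk3b (0.0577), Chd4 (0.0615) and Ywhae (0.0673). By the same measure among 8454 genes, the nearest to Setd1a were Pde4d (0.0378), Rpl10a (0.0567) and Stau1 (0.0704), and to Setd1b Ints9 (0.0565), Eea1 (0.0619) and Cpsf6 (0.106). Kmt2a was nearest to Eif3h (0.0506), Ccnt1 (0.0612) and Polr1a (0.0668), and Kmt2b to Dhx9 (0.0664), Eef1e1 (0.0921) and Ptges3 (0.0945). Nearest to Kmt2c were Aff4 (0.0642), Tcf4 (0.0970) and Trappc11 (0.107), and to Kmt2d Acsl3 (0.0503), Luc7l2 (0.0727) and Snx27 (0.0761). These distances are a description over 6 samples, and the points share library and depth.

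The partners of the enzymes were read from the same fit, and none passed the adjusted threshold. Over all genes tested, 6.51% had an unadjusted edgeR p under 0.05 and 7.74% had every knockout below every control. Of the 4 shared core subunits, Dpy30 had such a p and was the only one whose genotypes separated. The others had log2 fold changes of -0.26 for Wdr5, which docks the enzyme (SE 0.370), -0.09 for Rbbp5 (SE 0.366) and 0.11 for Ash2l, the direct partner of DPY30 (SE 0.318), with edgeR adjusted p of 0.940, 0.983 and 0.974. The list's median was -0.17.

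Of 4 subunits of the SET1 complexes, 0 had an unadjusted p under 0.05 (6.51% of all genes tested did), and the median was 0.02. The extremes were Cxxc1, the CpG-binding subunit, at 0.32 (SE 0.368; edgeR adjusted p = 0.921) and Wdr82 at -0.39 (SE 0.415; edgeR adjusted p = 0.908). Of 5 partners of MLL1 and MLL2, 0 had an unadjusted p under 0.05 and the median was -0.05. Their extremes were Hcfc2 at 0.64 (SE 0.626; edgeR adjusted p = 0.903) and Tasp1, the protease that cleaves MLL1, at -0.60 (SE 0.728; edgeR adjusted p = 0.926).

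Among 4 subunits of the MLL3 and MLL4 complexes, 0 had an unadjusted p under 0.05 (6.51% of all genes tested did), and the median was 0.26. Kdm6a, a demethylase of lysine 27 of histone H3, was at 62.8, 73.6 and 68.0 CPM in controls 1 to 3 and at 71.8, 109.6 and 120.1 CPM in knockouts 1 to 3. It was higher in the knockout of every litter, as were 12.3% of all genes tested. Knockout 1 was below control 2 (log2 fold change 0.56, SE 0.261, edgeR adjusted p = 0.775).

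Of 7 SET-domain relatives and other H3K4 enzymes, 6 were tested and Smyd1 had 0 counts in every sample. None had an unadjusted p under 0.05 (6.51% of all genes tested did), and the median was 0.19. Kmt2e, a relative of the MLL genes whose SET domain is thought to lack this activity, was at 164, 197 and 191 CPM in controls 1 to 3 and at 201, 210.3 and 356 CPM in knockouts 1 to 3. Every knockout was above every control, as in 6.39% of all genes tested, at a log2 fold change of 0.47 (SE 0.267, edgeR adjusted p = 0.814). Smyd3 had the lowest value, -0.48 (SE 0.493; edgeR adjusted p = 0.907). The 6 H3K4 demethylases, which remove the mark, had a median of 0.15 and 0 with an unadjusted p under 0.05. They ranged from Kdm5b at -0.41 (SE 0.466; edgeR adjusted p = 0.920) to Kdm5d at 0.54 (SE 0.871; edgeR adjusted p = 0.952), a Y-linked gene whose level also depends on the sex of the embryos.

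Genes known to depend on Kmt2a in blood cells were listed to set beside the level of the enzyme. Of 10 tested, 0 had an unadjusted p under 0.05, where 6.51% of all genes did. By sign, 5 had positive and 5 negative log2 fold changes with a median of -0.05. Knockout 3 stood apart: the list summed to 347, 310.0 and 330.0 CPM in controls 1 to 3 and to 364, 496 and 88.8 CPM in knockouts 1 to 3. Mecom and Hlf are also among the 10 HSC markers, whose sum was lowest in knockout 3 too. Without that sample 7 of 10 were positive, the median was 0.23, and 2 had an unadjusted edgeR p under 0.05, Eya1 (1.89) and Mecom (0.77), where 7.61% of all genes did and none of the list passed the adjusted threshold. Hoxa7, a Hox gene, was at 11.7, 4.71 and 7.44 CPM in controls 1 to 3 and at 3.20, 3.03 and 0 CPM in knockouts 1 to 3. All knockouts were below all controls, which held for 7.74% of all genes tested. Raw counts of Hoxa7 ranged from 176 to 338 among controls, while knockouts 1 and 2 had 127 and 110 and knockout 3 had 0. The fit gave a log2 fold change of -1.93 (SE 1.49; edgeR adjusted p = 0.869). Meis1, a cofactor of Hox proteins and named after its values were seen, differed in sign among litters, with log2 differences of 0.95, 0.82 and -1.95 in litters 1 to 3. Pbx3 had the smallest p of the list (log2 fold change 0.77, SE 0.566; edgeR adjusted p = 0.866), and Eya1 the highest fitted value, 1.30 (SE 1.56; edgeR adjusted p = 0.926), with 0 CPM in knockout 3.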

How the data were processed

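The authors deposited raw counts of reads per gene symbol, 1 library per sample, with no normalization. Per the submitters' processing notes, CASAVA 1.8.4, TopHat2, Picard 1.126, HTSeq 0.6.0, DESeq 3.0, bedtools 2.17.0 and build mm10 were used, with no roles given. Annotation, strand setting and read length are not given in the sources used here. Per the labels' protocols, total RNA was poly(A)-selected before library preparation. Reads given to no gene (41.0% to 51.0% of reads) were left out.

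Genes were kept with filterByExpr (13646), scaled by trimmed mean of M values and tested with the quasi-likelihood F test of edgeR 4.0.16 in R 4.3.3, by genotype alone, p-values being adjusted by Benjamini-Hochberg over all genes (threshold 0.05). SE is |log2 fold change| divided by √F, and 95% intervals use the fit's total degrees of freedom. DESeq2 1.42.0 and limma-voom (limma 3.58.1) were alternatives, and procedures were tested on simulated data. Log2 CPM uses a prior count of 2. Exon lengths came from GENCODE M21 (GRCm38), which matched 35582 of 38926 symbols.

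Litter pairs come from the labels. Deviations of litter mates from their genotype means correlated at -0.02, -0.08 and 0.003 in litters 1 to 3. Members and gene lists were chosen with earlier results of these data known. Beside the members and Dpy30, each list of enzymes, complex subunits or genes known to depend on Kmt2a names its smallest p. At 5 CPM or more, each of these lists also names its largest fold in each direction. Cell type markers are given as sums, with genes at 0 in all 6 samples, Cd48 and Tfrc named. The 3 genes nearest in pattern to each member and to the mean of the members are named.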

Additional observations from a re-analysis of the deposited data

Results flagged for a closer look

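Reads tallied as ambiguous, which overlap more than 1 gene and are used in no comparison here, made up more of the library in each of the 3 knockouts than in the controls. As a percentage of all reads this was 0.780% to 0.885% in controls, with a mean of 0.842% ± 0.0551, and 0.907% to 0.919% in knockouts, with a mean of 0.913% ± 0.00591 (SD, n = 3 each). The rule that flagged it looked at every tally of reads outside genes, and no other tally put every knockout above every control. Mitochondrial counts made up 54.4% to 67.7% of gene counts in controls and 49.2% to 55.7% in knockouts. The ambiguous share was not recomputed without mitochondrial reads. Which genes the ambiguous reads came from is not given by the tally, and its part in the values of the 6 enzymes was not tested.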

How the results depend on the processing

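None of the 6 members passed an adjusted p of 0.05 under any of the 17 alternatives, where the smallest adjusted p of a member was 0.575. The fits with a replicate block, paired by litter, changed no call. Kmt2a stayed between 0.09 and 0.41 and Kmt2c between 0.09 and 0.41 in log2 fold change. With the length offset, where the median of all genes was 0.10, Kmt2a was at 0.039 and Kmt2c at -0.015 relative to that median. The other signs turned under some settings, the cause not being tested: Setd1a to -0.047 with the replicate block, -0.046 with limma-voom, -0.080 with upper-quartile scaling and -0.016 with a length offset and the replicate block; Setd1b to -0.087 with upper-quartile scaling; Kmt2b to 0.14 with library size only; Kmt2d to -0.051 with upper-quartile scaling, -0.033 with a length offset and -0.034 with that offset and the replicate block. With 1 sample left out the ranges were -0.42 to 0.32 for Setd1a, -0.16 to 0.16 for Setd1b, -0.44 to 0.14 for Kmt2b and -0.038 to 0.19 for Kmt2d. Upper-quartile scaling put the median of all genes at -0.10, and library size only put it at 0.23. Relative to it Kmt2b was at -0.08 and -0.09. With upper-quartile scaling Setd1a, Setd1b and Kmt2d were at 0.024, 0.017 and 0.052 relative to the median. Setd1a was at 0.077 relative to it with the replicate block and at 0.097 with limma-voom. Kmt2d was at -0.13 relative to it with the length offset.

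Calls among all genes numbered 0, but 138 with DESeq2, 1 without a filter on low counts and 1 with at least 10 counts in every sample. In edgeR 888 genes had an unadjusted p under 0.05, and 619 with the replicate block. The count of members with an interval within 2-fold, recomputed under other settings after its value had been seen, was 3 with library size only, where the median of all genes was also higher, and 4 to 5 with 1 sample left out. The median of the genes known to depend on Kmt2a was 0.23 without knockout 3, also computed after its values had been seen.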

Other observations

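Methyltransferases of other histone lysines, listed for comparison with the SET1/MLL enzymes, had 1 of 16 genes with an unadjusted p under 0.05, a share near the 6.51% of all genes tested. It was Dot1l, the methyltransferase of lysine 79 of histone H3 and a partner of MLL fusion proteins in leukemia, at 35.5, 45.0 and 44.8 CPM in controls 1 to 3 and 73.4, 76.3 and 136 CPM in knockouts 1 to 3. All 3 knockouts were above all controls, with a log2 fold change of 1.19 (SE 0.313; unadjusted p = 0.00516; edgeR adjusted p = 0.624), so it did not pass. Of the 16 genes, 5 had positive and 11 negative log2 fold changes, with a median of -0.14, and 0 passed the adjusted threshold. The lowest was Suv420h1, a methyltransferase of lysine 20 of histone H4, at -0.75 (SE 0.472; edgeR adjusted p = 0.844). Another pair from the list, named after their values were seen, also had every knockout on one side of every control, which 6.39% of all genes had above and 7.74% below: Ehmt1, above, at 0.47 (SE 0.277; edgeR adjusted p = 0.824), and Setd8, below, at -0.43 (SE 0.225; edgeR adjusted p = 0.797).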
